A study of Mus musculus with 20 samples.

Results

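Potassium channel genes were followed across hippocampus and cortex of young mice with and without extra copies of Ube3a. They were taken as every gene row whose symbol is Kcn followed by a family letter or letters and a number, which gave 92 of the 47729 genes in the files. A further 7 symbols that start with Kcn, antisense and otherwise named genes such as Kcnq1ot1 and Kcnmb4os1, do not have this form and were left out. Of the 92 genes, 91 had at least 1 read in the 20 libraries and Kcnj1, which encodes a kidney inward rectifier, was listed at 0 in every library.

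The libraries came from 10 mice of strain C57Bl/6J at postnatal day 7 (P7), and each mouse gave 1 hippocampus and 1 cortex library. Mice 1 to 5 were WT and mice 6 to 10 were Ube3aOE, which the study's text describes as Ube3a+2 mice that carry a bacterial artificial chromosome transgene with Ube3a and its flanking sequence. No separate promoter restricts this transgene to a cell type, the study's later work centred on mice of 1 founder line, and no treatment is named for either genotype. Both sexes are labelled in both genotypes, with WT mice 1, 4 and 5 and Ube3aOE mice 7 and 10 labelled female and the others male. The samples are whole pieces of dissected tissue, so fewer cells of a type and less RNA per cell cannot be told apart in any value given here.

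Potassium channels let potassium ions leave the cell and so set the resting potential, end the action potential and space the spikes of a train. Voltage-gated (Kv) pore subunits assemble as tetramers with auxiliary subunits that set their trafficking and kinetics, and electrically silent Kv subunits form no channel of their own but change that of the Kv2 family. Kv7 and EAG-family channels open near the resting potential or shape repolarization. Calcium- and sodium-activated channels follow the ions that enter with each spike. Some inward rectifiers carry the responses of many G protein-coupled receptors, and two-pore-domain channels conduct the background leak. In hippocampus, Kv4 channels are best known for the A-type current of pyramidal cell dendrites. Many Kv channel genes still rise in expression during the first postnatal weeks.

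The depth was similar in all libraries, with 14191093 to 16752326 reads counted on genes (median 16295195), of which the 92 members held 0.290% to 0.377%. Ube3a checked the genotype labels. It lay at 57.1 to 76.7 CPM (read counts scaled to a common library total, TMM-normalized) in the WT hippocampus libraries and at 142 to 194 CPM in the Ube3aOE hippocampus libraries, and at 54.4 to 69.9 CPM and 129 to 182 CPM in cortex, a log2 difference of 1.32 ± 0.11 (SE) in hippocampus and 1.31 ± 0.11 in cortex. The tissue labels were checked with marker lists. All 6 hippocampus markers had a higher mean in the libraries labelled hippocampus, and 0 of the 6 neocortex markers did. Among the neocortex markers, Fezf2 had 26.8 to 83.6 CPM in hippocampus and 47.1 to 72.6 CPM in cortex. Lamp5 had 8.92 to 29.5 CPM and 11.2 to 21.8 CPM, so neither separated the tissues library by library. In 2 mice, both WT, the labelled sex goes against Xist and Ddx3y in both of their libraries.

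Some libraries stood apart by markers of neighbouring tissue. The 6 thalamus and habenula markers summed to 356 CPM in the hippocampus library of WT mouse 4, to 427 CPM in that of Ube3aOE mouse 7 and to 797 CPM in that of Ube3aOE mouse 10, against a median of 92.2 CPM over the 10 hippocampus libraries. Tcf7l2 carried most of these sums. The 5 choroid plexus markers summed to 1940 CPM in the hippocampus library of Ube3aOE mouse 7 and to 343 CPM in that of Ube3aOE mouse 9 (median 17.9), and the latter also held 515 CPM of 6 striatum markers (median 48.9). In cortex, the 6 hippocampus markers summed to 227 and 210 CPM in Ube3aOE mice 8 and 9 (median 102), and mouse 9 also held 9.09 CPM of choroid plexus markers (median 1.95). The cortex library of WT mouse 2 had the lowest share of reads on genes. The region comparison and the genotype comparisons were therefore also made without these 7 libraries, which left 13. The hippocampus library of WT mouse 2, whose neocortex markers summed to 378 CPM against 156 to 250 CPM in the other 9, stayed under the border of 2 times the median that was used for this choice.

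The most abundant channel transcripts differed between the regions. Levels were compared between genes only as CPM per kb of exon. In hippocampus the order began with Kcnab2 (36.7 ± 6.20 CPM per kb, SD, n = 10), the β subunit of Kv1 channels, Kcnip2 (36.0 ± 5.79), a calcium-binding subunit of Kv4 channels, and Kcnd2 (33.8 ± 3.54), the Kv4.2 pore. These 3 means lay within 1 SD of each other. Kcnk1, a two-pore-domain subunit, followed at 28.3 ± 4.87 CPM per kb.

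In cortex, Kcnip2 came first at 35.2 ± 3.28 CPM per kb (SD, n = 10). Kcnf1, a silent Kv subunit, was second at 28.5 ± 4.19 and Kcnj4, a strong inward rectifier, followed at 27.2 ± 2.69, within 1 SD of Kcnf1. Kcnab2, first in hippocampus, was in place 13 of the cortex order, Kcnd2 in place 12 and Kcnf1, second in cortex, in place 17 of the hippocampus order. Of the level summed over all members per kb, the leading 5 genes held 28.8% in hippocampus and 23.7% in cortex, and 12 and 14 genes respectively were needed to reach 50%. At the other end, 20 members had a mean under 1 CPM over the 20 libraries, and 15 of the 92 did not reach the count needed for a test in the region comparison.

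**Figure D1:**
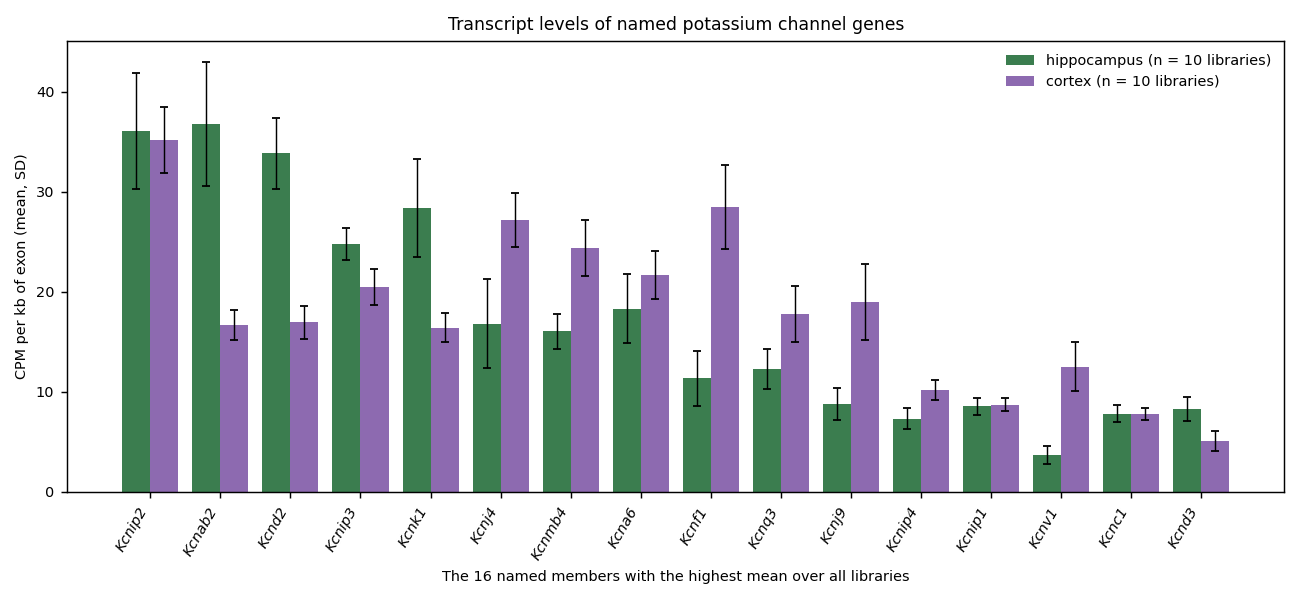
Mean level in CPM per kb of exon (bars) with the SD over 10 libraries (lines) of the 16 named members with the highest mean, in hippocampus (green) and cortex (purple). Kcnip2 stands at a similar height in both regions, Kcnab2, Kcnd2 and Kcnk1 are taller in hippocampus, and Kcnf1, Kcnj4 and Kcnj9 are taller in cortex.

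The first comparison was between the regions, over all 20 libraries. Of the 77 members that passed the filter on low counts, 51 differed between hippocampus and cortex (66.2%; edgeR quasi-likelihood test, adjusted P value under 0.05 over all 15661 genes tested), where 50.9% of all genes tested did. In 21 members (27.3%) the level was higher in hippocampus and in 30 (39.0%) it was lower, against 25.3% and 25.6% of all genes. A difference beyond 0.5 on the log2 scale, the border the study used, was passed by 33 members (42.9%) against 19.2% of all genes. These were 14 members higher in hippocampus (background 12.0%) and 19 lower (background 7.24%). The 10 hippocampus and the 10 cortex libraries did not overlap for 16 members, 20.8% of those tested, where 9.25% of all genes did not overlap. The sign was the same in 10 of 10 mice for 31 members, 40.3% against a background of 28.1%.

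Without the 7 libraries named above, 50 members were called (64.9%, background 45.4%), 44 of them among the 51. The balance of directions was then 17 higher and 33 lower in hippocampus (22.1% and 42.9%), where 22.9% and 22.6% of all genes were called. Beyond the border of 0.5 it was 9 higher and 25 lower in place of 14 and 19 (11.7% and 32.5%, against 12.2% and 8.48% of all genes). By class, higher and lower calls in that order were then 3 and 2 among the auxiliary subunits, 2 and 1 in the Kv1 family, 4 and 2 among Kv2 to Kv4 pores, and 1 and 8 among Kv7 and EAG-family pores. They were 1 and 7 among calcium- and sodium-activated channels, 2 and 5 each among silent subunits and inward rectifiers, and 2 and 3 among two-pore-domain channels. With the mouse as a block, 57 members were called (74.0%, background 55.8%), 50 of them shared with the fit without it. The signs of the 51 members called were the same in both of these fits.

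**Figure D2:**
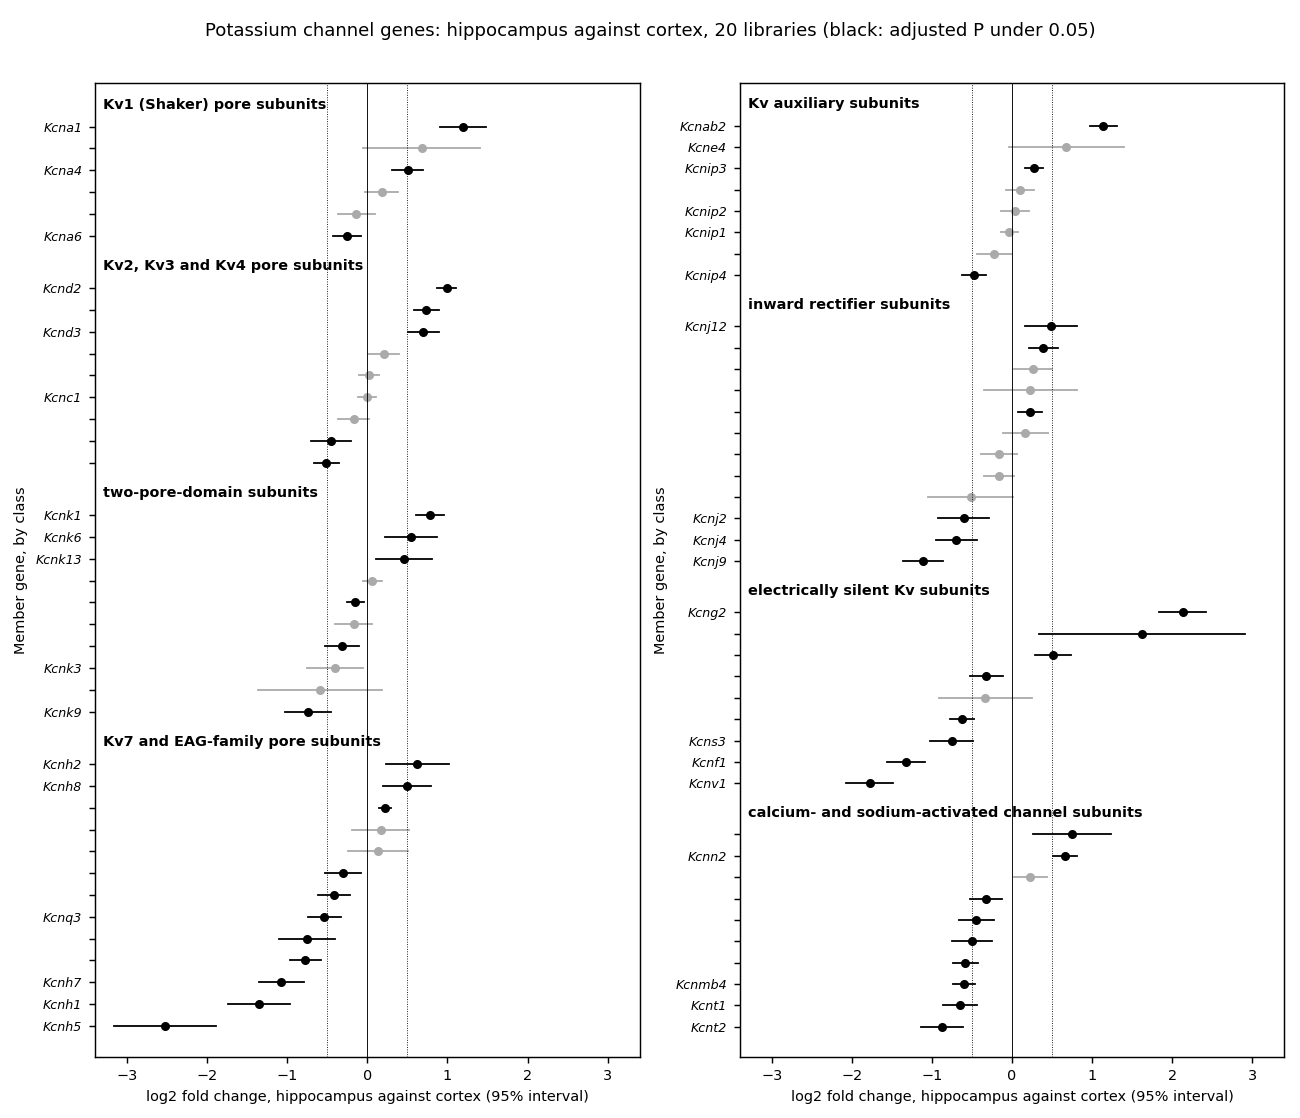
Log2 fold change of hippocampus against cortex with its 95% interval for the 77 members tested, in 8 classes, with symbols given for the named members; black marks an adjusted P value under 0.05 and dotted lines the border of 0.5. Kcng2 (2.13) is farthest to the right and Kcnh5 (-2.52) farthest to the left, and the calcium- and sodium-activated class lies mostly left of 0.

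Promoter sequences of 4 members are shown so that the regional differences can be set beside the bases upstream of each start. RefSeq entries for GRCm38.p6 were found for 67 of the 92 members. The stretches are the 150 bases before the annotated start, read 5′ to 3′ on the strand of the gene. They are given for Kcnd2, which was higher in hippocampus, for Kcnf1 and Kcnh5, which were lower, and for Kcnc1. Each of these genes has a single entry, which lies outside the gene body. Some named members with larger positive differences than Kcnd2, or larger negative ones than Kcnf1, are not shown. Capitals mark a GC box (GGGCGG or CCGCCC). The stretch of Kcnd2 lies at chr6:21215196-21215345 (plus strand), that of Kcnf1 at chr12:17176889-17177038 (minus strand), that of Kcnh5 at chr12:75177333-75177482 (minus strand) and that of Kcnc1 at chr7:46396318-46396467 (plus strand).
Kcnd2: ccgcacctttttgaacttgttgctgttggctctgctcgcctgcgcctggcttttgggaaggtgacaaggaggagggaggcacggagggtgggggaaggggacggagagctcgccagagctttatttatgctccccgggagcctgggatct
Kcnf1: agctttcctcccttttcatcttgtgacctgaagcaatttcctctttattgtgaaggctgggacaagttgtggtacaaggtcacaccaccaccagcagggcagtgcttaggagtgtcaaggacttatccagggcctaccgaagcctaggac
Kcnh5: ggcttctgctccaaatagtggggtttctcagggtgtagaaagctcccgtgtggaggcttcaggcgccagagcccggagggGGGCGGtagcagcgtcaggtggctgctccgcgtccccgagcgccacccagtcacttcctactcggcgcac
Kcnc1: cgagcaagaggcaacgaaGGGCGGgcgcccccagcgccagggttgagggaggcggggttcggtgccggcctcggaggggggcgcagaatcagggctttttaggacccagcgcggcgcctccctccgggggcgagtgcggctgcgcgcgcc

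Kcnc1, whose level hardly differed between the regions, had the richest stretch, with 75.3% G and C and 19 CpG dinucleotides, and Kcnf1 the poorest of the 4, with 50.7% and 1. Kcnd2 had 60.7% with 7 CpG and Kcnh5 66.0% with 11. Over the 250 bases before the start, searched on both strands, a GC box was found in 41 of the 92 promoter entries of the members (44.6%) and in 32.7% of all 32851 entries. It was found in 6 of 17 entries of the members higher in hippocampus (35.3%) and in 15 of 28 entries of those lower (53.6%). These entries cover only 13 of the 21 members called higher and 21 of the 30 called lower. TATAAA was found in 3.26% of the member entries and 12.4% of all entries, CACGTG in 6.52% and 6.02%, and TGACGTCA, the cAMP response element, in 0 of 92 and 1.55%. These are counts of letters in a window and not of bound sites, and entries of 1 gene can overlap.

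Over all genes tested 50.9% differed between the regions, 25.3% higher in hippocampus and 25.6% lower. Among the Kv4, Kv3 and Kv2 pore subunits, 5 of 9 differed, near that share, 3 of them higher in hippocampus. Their summed level was 593 ± 48.2 CPM in hippocampus and 486 ± 24.9 CPM in cortex (SD, n = 10). Kcnd2 (chr6:21215503-21729805 on GRCm38, plus strand) ran from 148 to 211 CPM in the hippocampus libraries (median 172) and from 75.8 to 100 CPM in cortex (median 86.1). The regions did not overlap and the level was higher in hippocampus in 10 of 10 mice, by 0.99 ± 0.06 on the log2 scale (SE), a 1.99-fold difference (adjusted P value 1.38e-10, edgeR). It was 0.95 ± 0.07 in the WT mice alone and 1.06 ± 0.09 in the Ube3aOE mice alone. Kcnd3, the pore of Kv4.3, was higher as well, with 62.4 to 102 CPM (median 77.0) in hippocampus and 39.9 to 68.4 CPM (median 46.8) in cortex, by 0.70 ± 0.09. Its cortex libraries with the highest values were those of Ube3aOE mice 8 and 9 (68.4 and 61.6 CPM), which also held the raised hippocampus markers. For Kcnd3 an antisense gene is annotated, and the strand setting of the counting is not given in the sources used here.

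Kcnc1, which encodes the Kv3.1 pore of fast-spiking neurons, was the member whose level differed least. Located at chr7:46396497-46438704 on GRCm38 (plus strand), it had 66.6 to 90.1 CPM in hippocampus (median 71.4) and 64.3 to 83.2 CPM in cortex (median 74.5), overlapping over most of their ranges. It was higher in hippocampus in 5 mice and lower in 5. The fitted difference was -0.00 ± 0.05 (adjusted P value 0.995, edgeR), and its sign changed with the processing.

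**Figure D3:**
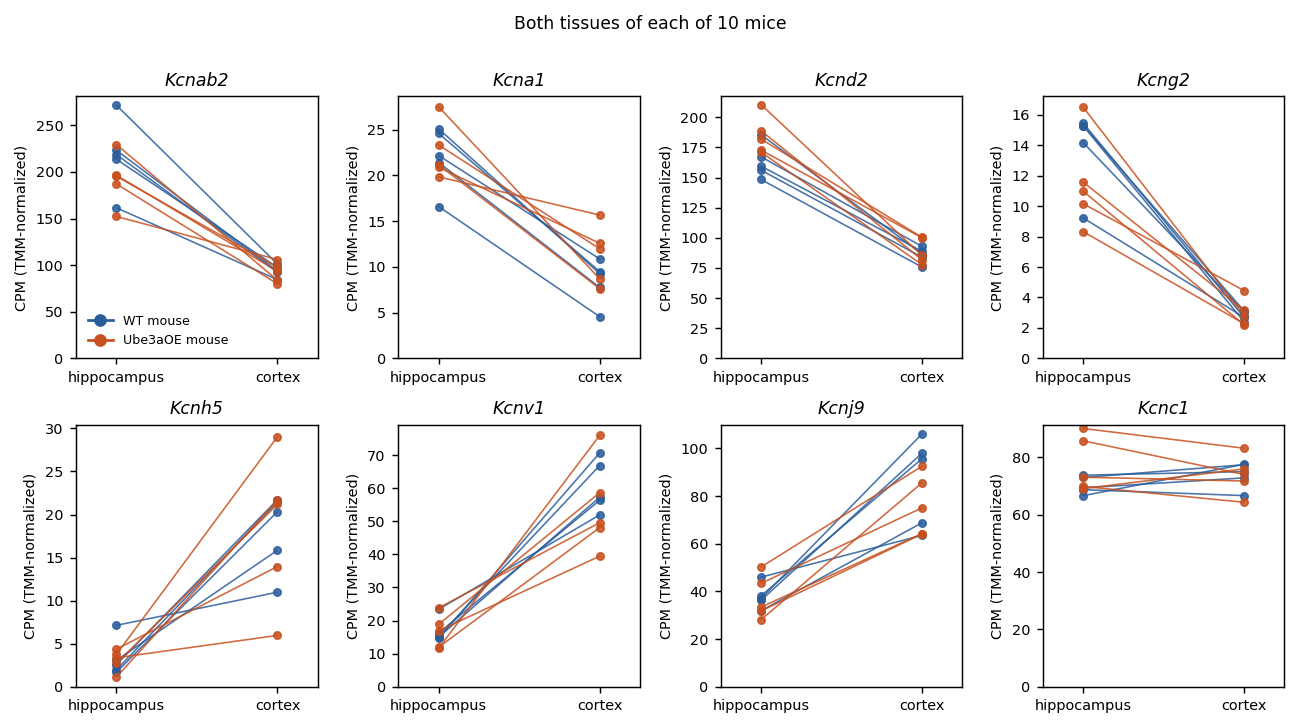
TMM-normalized CPM of 8 members in the hippocampus and cortex library of each mouse, joined by a line (blue: 5 WT mice, orange: 5 Ube3aOE mice). The lines fall from hippocampus to cortex in all 10 mice for Kcnab2, Kcna1, Kcnd2 and Kcng2, rise in all 10 for Kcnh5, Kcnv1 and Kcnj9, and cross without a common direction for Kcnc1.

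The auxiliary subunits of these channels did not share 1 direction, and 3 of the 8 tested differed (over all genes 50.9%). Kcnab2 had 152 to 272 CPM in hippocampus (median 205) and 79.9 to 106 CPM in cortex (median 93.6), without overlap and with the same sign in 10 of 10 mice. Its difference was 1.14 ± 0.08, or 2.20-fold (adjusted P value 1.47e-09, edgeR). Of the calcium-binding partners of Kv4, Kcnip3 was higher in hippocampus by 0.27 ± 0.05 in 10 of 10 mice, and Kcnip4 was lower in 10 of 10 mice, at 22.5 to 35.9 CPM against 30.4 to 41.2 CPM (-0.48 ± 0.07). Kcnip2, the most abundant of them, had 84.5 to 147 CPM in hippocampus and 96.6 to 137 CPM in cortex, and its difference of 0.03 ± 0.08 did not pass the test (adjusted P value 0.759, edgeR). Kcnip1 also did not pass (-0.03 ± 0.05).

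In the Kv1 family, whose channels sit at axon initial segments and beside nodes of Ranvier, 3 of 6 members differed (over all genes 50.9%). Kcna1, the Kv1.1 pore, had 16.6 to 27.5 CPM in hippocampus (median 21.8) and 4.56 to 15.7 CPM in cortex (median 9.38). The regions did not overlap, and it was 2.28-fold higher in hippocampus (1.19 ± 0.14, adjusted P value 6.60e-07, edgeR). The highest cortex value, 15.7 CPM, was that of Ube3aOE mouse 9. Kcna4, the Kv1.4 pore, which gives an A-type current in axons, was higher in 9 of 10 mice by 0.50 ± 0.10. Kcna6, the most abundant of the family per kb, was lower in hippocampus in 7 of 10 mice (-0.25 ± 0.08). This call was lost without WT mouse 1, WT mouse 5, Ube3aOE mouse 6 or Ube3aOE mouse 7, and in the Ube3aOE mice alone.

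Of the silent subunits 8 of 9 tested differed (over all genes 50.9%), 3 higher and 5 lower in hippocampus. Their summed level was 193 ± 23.2 CPM in hippocampus against 325 ± 36.8 CPM in cortex (SD, n = 10). One of the 3 higher members, Kcng4, chosen after its values were seen, had 7.96 CPM in the hippocampus library of Ube3aOE mouse 10 and 0.354 to 1.13 CPM in the other 9. Its call (1.62 ± 0.61, adjusted P value 0.0343, edgeR) was lost without the libraries that stood apart, in each genotype alone, without a filter on low counts, and without WT mouse 1, 3 or 5 or Ube3aOE mouse 6 or 10. Kcng2 had 8.32 to 16.5 CPM in hippocampus (median 12.9) and 2.20 to 4.45 CPM in cortex (median 2.74). It was 4.37-fold higher in hippocampus without overlap (2.13 ± 0.14, adjusted P value 4.48e-10, edgeR). Its lowest WT hippocampus value, 9.22 CPM, was that of mouse 2, and the other 4 WT mice lay at 14.2 to 15.4 CPM. Kcnv1 ran the other way, with 11.7 to 23.8 CPM in hippocampus (median 15.8) and 39.5 to 76.0 CPM in cortex (median 56.8), a difference of -1.77 ± 0.14 or 3.42-fold (adjusted P value 1.07e-08, edgeR).

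Kcnf1 was lower in hippocampus in 10 of 10 mice, with 45.3 to 87.6 CPM (median 48.6) against 111 to 169 CPM in cortex (median 128), by -1.33 ± 0.11. The hippocampus value of Ube3aOE mouse 9, 87.6 CPM, stood above the other 4 Ube3aOE mice (46.4 to 58.2 CPM), in the library with 515 CPM of striatum markers and 343 CPM of choroid plexus markers. The part of these tissues in the value was not tested. Kcns3, a modifier of Kv2 channels, was lower in 9 of 10 mice at a low level (1.92 to 4.18 CPM against 3.55 to 6.60 CPM, -0.75 ± 0.13).

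The Kv7 and EAG-family pores leaned toward cortex, with 11 of 13 members called (over all genes 50.9%). Of these, 8 were lower in hippocampus and 3 higher (over all genes 25.6% and 25.3%). Of the 3 higher members, Kcnh2 and Kcnh8 lost their call without the libraries that stood apart, Kcnh8 with 0.50 ± 0.14 over all libraries and 0.28 ± 0.14 without them. Kcnh5 (chr12:74897220-75177332 on GRCm38, minus strand), an EAG channel, gave the largest difference of any member. Its hippocampus libraries ranged from 1.13 to 7.13 CPM (median 2.90) and its cortex libraries from 5.96 to 29.0 CPM (median 20.8), a difference of -2.52 ± 0.30 or 5.74-fold (adjusted P value 1.94e-06, edgeR). It was lower in hippocampus in 10 of 10 mice, yet the groups overlapped through 2 libraries. These were the hippocampus library of WT mouse 2 at 7.13 CPM, with its raised neocortex markers, and the cortex library of Ube3aOE mouse 8 at 5.96 CPM, with its raised hippocampus markers. The difference was -2.96 ± 0.34 without the libraries that stood apart.

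Kcnh1, the closest EAG relative, had 18.8 to 33.7 CPM in hippocampus (median 24.3) and 25.1 to 81.0 CPM in cortex (median 70.9), by -1.35 ± 0.18. Its lowest cortex values were again those of Ube3aOE mouse 8 (25.1 CPM) and, with WT mouse 2 (43.9 CPM), Ube3aOE mouse 9 (44.9 CPM). Its difference was -1.58 ± 0.11 without the libraries that stood apart. Kcnh7, an ERG channel, was lower by -1.07 ± 0.13 without overlap (16.0 to 32.2 CPM against 33.8 to 69.0 CPM).

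Kcnq3, a Kv7 pore subunit of the M-current that was chosen after its values were seen, was lower in hippocampus in 10 of 10 mice, with 144 to 231 CPM (median 171) against 217 to 349 CPM (median 246), by -0.53 ± 0.10 (adjusted P value 0.000119, edgeR). The highest hippocampus library lay above the lowest cortex library.

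Kcnh2, which encodes the ERG1 channel and was chosen after its values were seen, was called higher in hippocampus (0.63 ± 0.19, adjusted P value 0.0102, edgeR) through a few libraries. The WT hippocampus values were 23.3, 24.5, 25.7, 48.3 and 24.7 CPM in mice 1 to 5, and the Ube3aOE values were 24.3, 55.5, 30.1, 34.9 and 81.2 CPM in mice 6 to 10. The 3 highest were the libraries of mice 4, 7 and 10, which also held the raised thalamus and habenula markers, while cortex stayed between 20.7 and 26.1 CPM. Without the libraries that stood apart the difference was 0.14 ± 0.07 and was not called (adjusted P value 0.119).

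Where Kcnh2 lost its call, Kcnk3 (TASK1, a leak channel), also chosen after its values were seen, gained a call under the same choice. In hippocampus it had 12.2, 16.8, 12.7, 18.3 and 11.8 CPM in the WT mice and 12.5, 25.9, 16.0, 17.8 and 37.6 CPM in the Ube3aOE mice, and in cortex 16.0 to 27.4 CPM. Over all libraries its difference of -0.40 ± 0.17 missed the threshold (adjusted P value 0.0525, edgeR). Like that of Kcnh2, it was lower without the libraries that stood apart, at -0.89 ± 0.09 (adjusted P value 9.34e-07, edgeR). The highest hippocampus values were again those of mice 7 and 10.

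**Figure D4:**
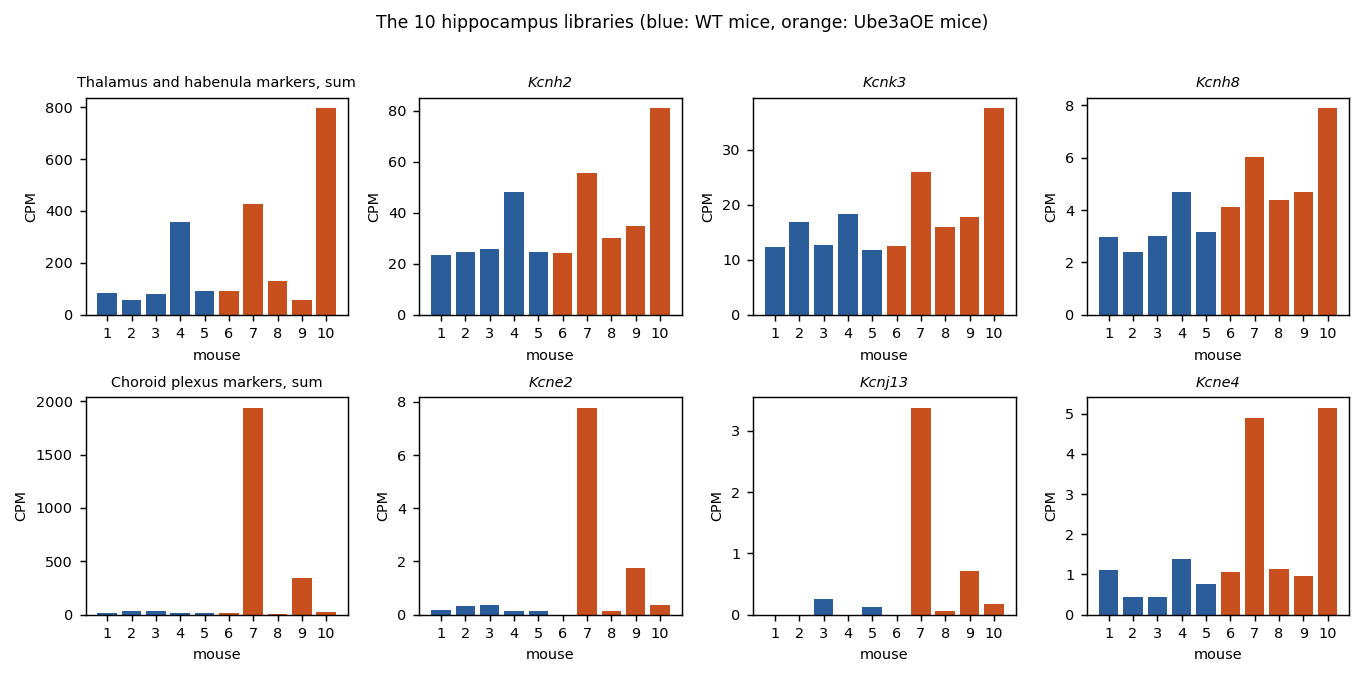
CPM in each of the 10 hippocampus libraries (bars; blue: WT mice 1 to 5, orange: Ube3aOE mice 6 to 10) of the summed thalamus and habenula markers, the summed choroid plexus markers and 6 members. Kcnh2, Kcnk3 and Kcnh8 are tallest in mice 10 and 7, Kcne4 in mice 7 and 10, and Kcne2 and Kcnj13 in mouse 7.

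The lowly counted members Kcne2 and Kcnj13, which encode an auxiliary subunit and an inward rectifier of choroid plexus epithelium and were chosen after their values were seen, were read mainly in single libraries. Kcne2 reached 7.78 CPM in the hippocampus library of Ube3aOE mouse 7 and 1.73 CPM in that of mouse 9, and was at 0.370 CPM or less in the other 8 hippocampus libraries. Kcnj13 reached 3.38 and 0.707 CPM in the same libraries and 3.04 CPM in the cortex library of Ube3aOE mouse 8, where the choroid plexus markers summed to 3.398 CPM. Neither gene passed the filter on low counts.

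Calcium- and sodium-activated channels were lower in hippocampus in 7 of 10 members tested and higher in 2 (over all genes 25.6% and 25.3%). Kcnt2 and Kcnt1, the sodium-activated channels, were lower in hippocampus in 10 of 10 mice. Kcnt2 had a median of 11.0 CPM in hippocampus and 21.1 CPM in cortex (-0.87 ± 0.13), and Kcnt1 43.9 and 67.9 CPM (-0.65 ± 0.10). Kcnmb4, the neuronal β subunit of the large-conductance calcium-activated channel, had 41.7 to 60.7 CPM in hippocampus and 63.1 to 90.2 CPM in cortex without overlap (-0.60 ± 0.07, adjusted P value 2.56e-07, edgeR). An antisense gene is annotated for Kcnmb4 too. Kcnn2, the SK2 channel of the afterhyperpolarization, ran against its class, with 26.3 to 37.9 CPM in hippocampus (median 33.7) and 16.2 to 24.4 CPM in cortex (median 20.5), without overlap (0.66 ± 0.07, adjusted P value 1.82e-07, edgeR).

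Of the inward rectifiers 6 of 12 tested differed, 3 in each direction, which is near the share of all genes (50.9%). Kcnj9, the GIRK3 subunit of G protein-gated channels, was lower in hippocampus without overlap (28.1 to 50.2 CPM, median 36.6, against 63.5 to 106 CPM, median 80.3; -1.11 ± 0.12, adjusted P value 3.94e-07, edgeR). Kcnj4 (-0.70 ± 0.12) and Kcnj2 (-0.60 ± 0.15), both strong inward rectifiers, were lower in 10 of 10 mice with overlapping ranges. Kcnj12, a further strong rectifier, was called higher (0.49 ± 0.15), with its highest value, 15.6 CPM, in the hippocampus library of Ube3aOE mouse 10. Kcnj12 was not called without the libraries that stood apart (0.21 ± 0.14, adjusted P value 0.254).

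Among the two-pore-domain channels 6 of 10 tested differed (over all genes 50.9%), 3 in each direction. Kcnk1 (TWIK1) had 48.1 to 80.8 CPM in hippocampus (median 65.8) and 31.5 to 42.1 CPM in cortex (median 36.8) without overlap (0.79 ± 0.08, adjusted P value 2.08e-07, edgeR). Kcnk9 (TASK3) was lower in hippocampus in 10 of 10 mice (5.73 to 12.9 CPM against 9.49 to 17.1 CPM, -0.74 ± 0.14). Kcnk6 (0.55 ± 0.16) and Kcnk13 (0.46 ± 0.17) were higher at levels of a few CPM, and Kcnk13 was not called without the libraries that stood apart, in the WT mice alone, or without WT mouse 1 or 5 or Ube3aOE mouse 6 or 8.

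The regional pattern was also fitted in each genotype alone, on 74 members each. In the 5 WT mice 41 members were called (15 higher, 26 lower in hippocampus), 55.4% of those tested, where 5735 of 15088 genes were. In the 5 Ube3aOE mice 36 were called (17 higher, 19 lower), 48.6% against a background of 26.9%. Of these, 31 were called in both, which is 75.6% of the WT calls and 86.1% of the Ube3aOE calls, and all 31 had the same sign. Of the 73 members fitted in both genotypes, 68 had the same sign.

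Proteins that bind potassium channels were taken as a list of 24 genes. Of the 21 tested, 17 differed between the regions, 7 higher in hippocampus and 10 lower. Over all genes tested 50.9% differed, 25.3% higher and 25.6% lower. The median log2 difference was -0.13 for the 21 partner genes, beside -0.15 for the members and -0.005 for all genes. The transmembrane peptidase-like subunits of Kv4 channels went opposite ways. Dpp6 had 280 to 356 CPM in hippocampus and 167 to 268 CPM in cortex (0.59 ± 0.07), and Dpp10 had 36.3 to 101 CPM and 120 to 146 CPM (-1.11 ± 0.16). Cntn2, an adhesion protein that clusters Kv1 channels beside nodes, was higher in hippocampus in 10 of 10 mice (0.65 ± 0.07), as was Rgs7bp, which anchors a regulator of G protein signalling to the membrane (0.46 ± 0.12). Dlg2 (-0.61 ± 0.09), a scaffold of Kv1 channels, and Adam22 (-0.53 ± 0.09), a receptor of Lgi1 in the Kv1 complex, were lower in hippocampus in 9 of 10 mice.

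The second comparison was between Ube3aOE and WT mice within each tissue. In hippocampus 0 of 74 members tested passed (edgeR, adjusted P value), where 1 gene of 15220, Ube3a itself, did (0.00657%). Before adjustment 7 members (9.46%) had a P value under 0.05, against 7.21% of all genes, and 6 of the 7 had a fitted level above WT. DESeq2 and limma voom also called 0 members and gave 12 and 7 at an unadjusted P value under 0.05 (backgrounds 7.76% and 7.43%). The count before adjustment rested on single mice. It was 3 (4.00%, background 4.16%) without Ube3aOE mouse 10, 11 without WT mouse 2 or Ube3aOE mouse 8 (14.9% each, backgrounds 9.85% and 7.57%) and 17 (22.7%, background 12.5%) without Ube3aOE mouse 6. Without the libraries that stood apart it was 2 of 76 (2.63%, background 2.53%), 1 higher and 1 lower. The fitted difference was above 0 in 47 of 74 members (63.5%), against 50.7% of all genes, and in 44 of 76 (57.9%, background 49.2%) without the libraries that stood apart. No member had 5 WT and 5 Ube3aOE libraries without overlap, where 1.13% of all genes did. The 95% interval lay inside -0.5 to 0.5 for 44 members (59.5%), against 69.9% of all genes, so for the other members the data leave room for a larger difference.

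In cortex 0 of 75 members passed, where 0.00669% of 14947 genes did, again Ube3a alone. Before adjustment 1 member had a P value under 0.05 (1.33%) against 4.44% of all genes, and DESeq2 and limma voom called 0 and gave 1 and 2. Leaving out 1 mouse gave 0 to 6 members (over all genes 412 to 1144). Leaving out the libraries that stood apart gave 4 (5.33%, background 3.31%), 2 in each direction. The fitted difference was above 0 in 41 members (54.7%; background 51.4%), but in 28 (37.3%; background 49.3%) without the libraries that stood apart and in 29 (38.7%; background 49.5%) without WT mouse 2. No member was without overlap (background 0.676%), and for 53 members (70.7%; background 73.8%) the interval lay inside -0.5 to 0.5.

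The members with the smallest P values in hippocampus were Kcnh8, Kcne4, Kcnd3, Kcnd2 and Kcnip1. Kcnh8, an ELK channel, had 2.99, 2.40, 3.02, 4.71 and 3.17 CPM in the WT mice and 4.11, 6.03, 4.37, 4.69 and 7.90 CPM in the Ube3aOE mice. Only the WT value of mouse 4 reached into the Ube3aOE range, and the difference was 0.73 ± 0.22 (P value 0.00534, adjusted 0.668, edgeR). Mice 4, 7 and 10, the highest of their groups, were those with raised thalamus and habenula markers. Without the libraries that stood apart, with 4 WT and 2 Ube3aOE libraries left, it was 0.55 ± 0.21 (P value 0.0245, adjusted 0.999, edgeR).

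Kcne4, an auxiliary subunit that damps Kv1 currents, had 1.11, 0.430, 0.431, 1.38 and 0.750 CPM in the WT hippocampus and 1.07, 4.88, 1.12, 0.964 and 5.15 CPM in the Ube3aOE hippocampus. The latter group was high in mice 7 and 10 only, and the other 3 libraries lay inside the WT range. The difference was 1.67 ± 0.59 (P value 0.0172, adjusted 0.668, edgeR), and 0.67 ± 0.43 without the libraries that stood apart. With the labelled sex as a covariate Kcne4 was the 1 member called (1.90 ± 0.24, adjusted P value 0.0239, edgeR), and this label goes against sex-linked genes in 2 mice. Mice 7 and 10 are also the only Ube3aOE mice labelled female, and their hippocampus libraries held the raised thalamus and habenula markers. Labelled sex and these markers therefore cannot be told apart among the Ube3aOE mice.

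The Kv4 pores Kcnd3 (0.25 ± 0.09) and Kcnd2 (0.18 ± 0.07) and the Kv4 partner Kcnip1 (0.17 ± 0.07) were at slightly higher fitted levels in the Ube3aOE hippocampus, each with an adjusted P value of 0.668 (edgeR). Kcnd2 had 167, 148, 156, 160 and 186 CPM in the WT mice and 189, 171, 182, 173 and 211 CPM in the Ube3aOE mice, groups that overlap through WT mouse 5. Its 95% interval ran from 0.02 to 0.34, inside the border of 0.5, and that of Kcnd3 from 0.05 to 0.45. Without the libraries that stood apart Kcnd2 had 0.17 ± 0.09 and Kcnd3 0.09 ± 0.12. In the Ube3aOE comparison Kcnc1 had 66.6 to 73.8 CPM in the WT hippocampus and 69.1 to 90.1 CPM in the Ube3aOE hippocampus, a difference of 0.14 ± 0.08 (interval -0.03 to 0.31).

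**Figure D5:**
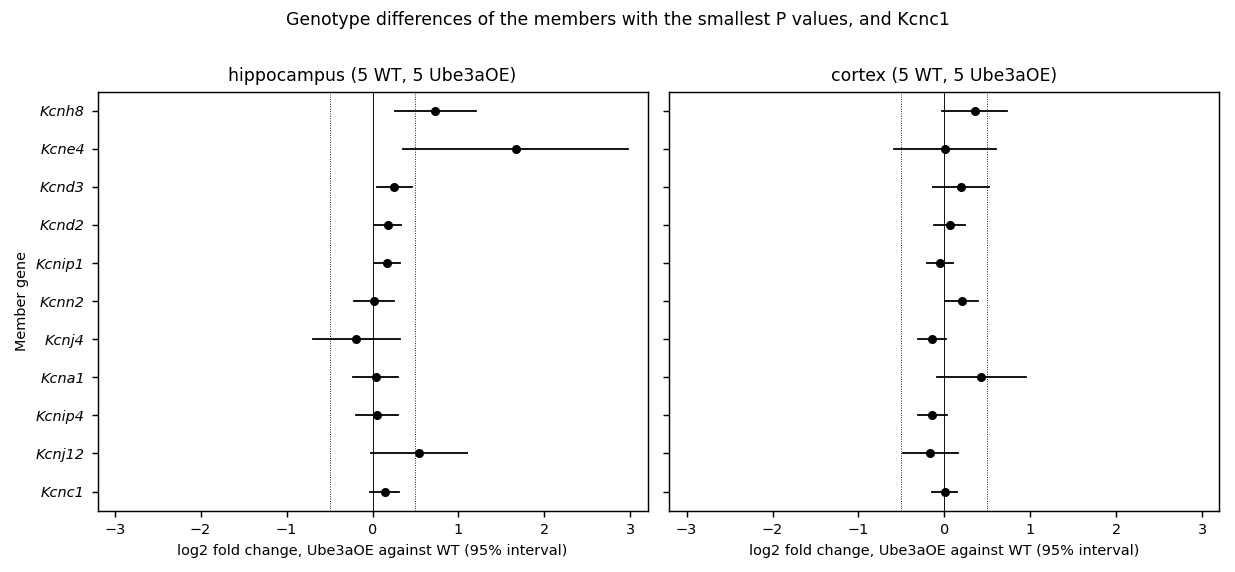
Log2 fold change of Ube3aOE against WT with its 95% interval in hippocampus (left) and cortex (right) for the members with the smallest P values and for Kcnc1; dotted lines mark the border of 0.5. No member passed the adjusted threshold, and the widest interval is that of Kcne4 in hippocampus, from 0.36 to 2.97.

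In cortex, Kcnn2 gave the smallest P value. It had 21.7, 16.2, 19.5, 19.8 and 19.3 CPM in the WT mice and 23.5, 21.1, 24.4, 19.9 and 22.1 CPM in the Ube3aOE mice, overlapping ranges with a difference of 0.20 ± 0.09 (P value 0.0403, adjusted 0.960, edgeR). Kcnh8 was at 0.35 ± 0.18, Kcna1 at 0.43 ± 0.24, Kcnj4 at -0.14 ± 0.08 and Kcnip4 at -0.14 ± 0.08, with the same adjusted P value of 0.960. For Kcna1 the Ube3aOE libraries of mice 8, 9 and 10 were the highest of the 10, and without the libraries that stood apart the difference was 0.04 ± 0.17. Kcnd2 (0.06 ± 0.08) and Kcnc1 (0.00 ± 0.07) had intervals inside the border of 0.5.

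The interaction of genotype and region asked whether a genotype difference was unlike between the tissues. It was called for 0 of 77 members and for 0.0% of all genes, and at an unadjusted P value under 0.05 for 3 members (3.90%; background 3.77%; DESeq2 gave 4 and limma voom 1, and both called 0). Without the libraries that stood apart it was 2 members (2.60%, background 2.82%), and with 1 mouse left out 1 to 7 (over all genes 383 to 1176). The 3 members were Kcne4 (1.66 ± 0.69), Kcnj12 (0.71 ± 0.31) and Kcnip1 (0.22 ± 0.10), each with an adjusted P value of 0.997 (edgeR). For Kcne4 and Kcnj12 the Ube3aOE hippocampus library of mouse 10 held the highest value, beside its 797 CPM of thalamus and habenula markers. The part of that tissue in these values was not tested.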

How the data were processed

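Stranded mRNA libraries of both tissues of each mouse were analysed from the files the authors deposited, which hold unnormalized read counts per gene. The submitters' processing notes name HISAT2 2.1.0, HTSeq 0.11.2 and GRCm38 (mm10); the annotation and the strand setting of the counting are not given in the sources used here. The 5 lines per file for reads not counted on a gene (18.8% to 30.3% of reads) were left out. Of the gene identifiers, 99.1% matched GENCODE M21, from which positions and exon lengths were taken. Genotype, tissue and mouse came from the labels. Counts were fitted in R 4.3.3 with edgeR 4.0.16 (TMM, filterByExpr, robust quasi-likelihood F test, Benjamini-Hochberg adjustment over all genes tested, threshold 0.05), over all 20 libraries for regions and the interaction and within 10 libraries for genotypes, without a block. Intervals came from the F statistic. In the genotype fits, P values measure the spread between mice. The region and interaction fits take both libraries of a mouse as independent, so their P values measure the spread between libraries within a group. The precision is limited by 5 mice per genotype (biological coefficient of variation 12.1% to 14.9%).

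Same-numbered libraries come from the same animal by their titles. After group means were taken out, they correlated across genes with r from -0.0367 (mouse 4) to 0.248, and the fit with the mouse as a block was an alternative.

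The members and lists were chosen with earlier results of these data known. Named are Kcnd2 and Kcnc1, per class the member with the highest level per kb and up to 4 with the largest called region differences and a mean of at least 1 CPM, the 5 members with the smallest P values for genotype per tissue and the 3 for the interaction, members at 0, and the 3 partner genes with the largest region differences each way. Some genes that the rule names are not reported here singly, but they are in all counts over the members. Alternatives were DESeq2 1.42.0, limma 3.58.1 (voom), upper-quartile factors, no filter on low counts, library totals alone, removal of length and GC trends, a term for labelled sex, 1 fit over all libraries for genotypes, each genotype alone for regions, and each mouse left out. Leaving out the libraries that stood apart was added after seeing the data. The fits were tested on simulated counts, drawn independently for each library. These held no effect shared by the libraries of a mouse and no neighbouring tissue, so the simulation says nothing about either.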

Additional observations from a re-analysis of the deposited data

Results flagged for a closer look

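For 39 values (38 members and their summed CPM) in the 4 groups of 5 libraries, 17 of 156 groups held a library that stood apart, by a gap to its nearest neighbour above 0.71 of the whole range. Chance flags about 1 in 20 groups, here 7.8. The 38 members include Kcnh2, Kcnk3, Kcnj5, Kcng4, Kcne2 and Kcnj13, which were chosen after their values were seen. The 17 can therefore not be set against the 7.8 as an excess over chance.

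The hippocampus library of WT mouse 2 accounted for 4 of them. It was highest of the 5 WT mice for Kcnh5 (7.13 CPM) and Kcnv1 (23.4 CPM), which were lower in hippocampus than in cortex, and lowest for Kcng2 (9.22 CPM) and Kcnn2 (26.3 CPM), which were higher. Its neocortex markers summed to 378 CPM against 173 to 215 CPM in the other 4, and their part in the values was not tested.

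Next came the Ube3aOE hippocampus library of mouse 10, highest for Kcng4 (7.96 CPM), Kcnj12 (15.6 CPM) and Kcnj5 (11.7 CPM), with 797 CPM of thalamus and habenula markers. In the same group mouse 7 was highest for Kcne2 (7.78 CPM) and Kcnj13 (3.38 CPM), with 1940 CPM of choroid plexus markers, and mouse 9 for Kcnf1 (87.6 CPM). In WT hippocampus, mouse 4 was highest for Kcnh2 (48.3 CPM) and mouse 3 for Kcnip1 (54.5 CPM).

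In cortex, Ube3aOE mouse 10 was highest for Kcnh7 (69.0 CPM), mouse 7 for Kcnj2 (15.7 CPM) and mouse 8 for Kcnj13 (3.04 CPM). Among WT mice, mouse 1 was highest for Kcnt1 (97.8 CPM). Mouse 2 was lowest for Kcne2 (0.0747 CPM, against 0.187 to 0.194 CPM), which is 1 read against 3 reads in each other WT cortex library.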

How the results depend on the processing

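Of 204 counts and summed levels recomputed, 201 stayed within 1.5 times or 1 SD. Counts before adjustment were not among them and are given beside the genotype comparisons. With Ube3aOE mice only, a fit on 10 of the 20 libraries, fewer genes were called. Members called lower in hippocampus were 19 in place of 30 (over all genes 1891 in place of 4010). Partner genes called were 8 in place of 17 (over all genes 4075 in place of 7973). With the labelled sex as a covariate 1 member was called in hippocampus.

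Leaving out 1 mouse at a time, 45 to 54 members were called between regions (over all genes 7284 to 7980). Members called higher were 19 to 23 and lower 26 to 32 (over all genes 3610 to 4135 and 3532 to 3876). With the mouse as a replicate block 57 members were called (over all genes 8737). The pairing moved no count by over 1.5 times.

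The sign of Kcnc1, -0.00 between regions, turned to 0.00292 with DESeq2, 0.0265 with upper-quartile factors, 0.00594 without a filter on low counts, 0.00512 without the cortex library of WT mouse 2, and 0.0800 in Ube3aOE mice only (0.0769 with the block). With 1 mouse left out it ran from -0.0141 to 0.0273. Kcnip2, 0.03 between regions, turned to -0.0195 after removal of length and GC trends and -0.0314 with the block as well, and ran from -0.00822 (without Ube3aOE mouse 8) to 0.115 with 1 mouse left out. Neither gene was called in any of these fits. Of 759 values of the 33 genes called between regions and named, 739 kept their side of the threshold, 20 did not, and 0 changed sign.

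The cause of these changes was not tested. With 5 mice per genotype, 0 members passed between genotypes, and the 95% intervals given for each tissue bound the differences these libraries allow. Of the 92 members, 15 were too low to test between regions. The 7 libraries left out as standing apart were 2 of the WT and 5 of the Ube3aOE libraries, so that this alternative leaves 4 WT and 2 Ube3aOE hippocampus libraries.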
